A study of Mus musculus with 15 samples.

Results

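The genes described here encode the enzymes that build squalene from acetyl-CoA, the mevalonate pathway up to its first step committed to sterols. They were chosen by symbol, as the probe sets annotated to 9 genes in the table of array values, and 8 of the 9 were measured, through 21 of the 20380 probe sets that carried a single gene. These were Hmgcs1, Mvk, Pmvk, Mvd, Idi1, Fdps, Ggps1 and Fdft1, set among 12393 genes in all, and Acat2 was not analysed here. Liver RNA came from mice labelled as adult males aged 3 months, with 1 Affymetrix array for each mouse and 3 mice in each of 5 groups. Z4 mice expressed the mutant Z form of human alpha1-antitrypsin, a protease inhibitor that the liver secretes and whose Z form is retained in the endoplasmic reticulum, and drank no doxycycline. Z1 mice carried the same transgene, shut off since conception by doxycycline in the drinking water at 40 µg/mL. M4 mice expressed the wild type M form without doxycycline, and M1 mice were the M line kept on the drug. WT mice were littermates with no transgene and no doxycycline. Both transgenes were inducible and limited to hepatocytes by the labels, the sources used here name no promoter for them, and the human protein and its RNA were not analysed here. Z4 and Z1 mice, and likewise M4 and M1 mice, differed in doxycycline as well as in expression, and the effects of drug and transgene cannot be told apart in those comparisons.

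In the mevalonate pathway acetyl-CoA units are joined into HMG-CoA, which is reduced to mevalonate, phosphorylated and decarboxylated to a branched isoprenoid unit, and these units are then joined head to tail into farnesyl diphosphate. Farnesyl diphosphate feeds squalene and cholesterol on one branch, and on others the longer prenyl chains that anchor proteins to membranes, dolichol for glycosylation and ubiquinone. The liver is a main site of cholesterol synthesis, and the genes of the pathway are known targets of the transcription factor SREBP-2, which is released from the endoplasmic reticulum when sterols are scarce.

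Most of these enzymes had their lowest signal in Z4 livers. In Z4 minus Z1, 6 of the 8 enzymes fell (Hmgcs1, Mvk, Pmvk, Idi1, Fdps and Fdft1), with log2 changes from -1.55 to -2.36, while 7.46% of all genes tested were called lower and 31.6% higher. For the same 6 enzymes all 3 Z4 arrays lay below all 3 Z1 arrays, as they did for 12.7% of all genes. Called means a limma adjusted p under 0.05, with p adjusted over all 12393 genes of a comparison. The median log2 change of the 8 enzymes was -1.64, against 0.25 for all genes. Mvk, Pmvk, Idi1, Fdps and Fdft1 were lower on each of the 3 Z4 arrays than on each of the 12 others, which held for 1.02% of all genes. Mvk and Mvd, on the probe sets used for the genes, were higher on all 3 M4 arrays than on each of the 12 others. This held for 4.83% of all genes. On the other Mvk probe set M4 replicate 1 read 67.9, against 81.4 on Z1 replicate 3. On the other Mvd probe set M4 replicate 3 read 143.2, against 153.9 on M1 replicate 1. In the M line, 1 enzyme was called higher (Mvk) and 1 was called lower (Idi1) in M4 minus M1, where 37.9% and 12.4% of all genes were called in those directions, and the median log2 change of the enzymes was 0.04, against 0.29 for all genes. On the probe sets used, arrays did not overlap for Mvk and Mvd, which were higher in M4 (44.1% of all genes). Nor did they for Pmvk and Idi1, which were lower (13.8% of all genes).

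**Figure D1:**
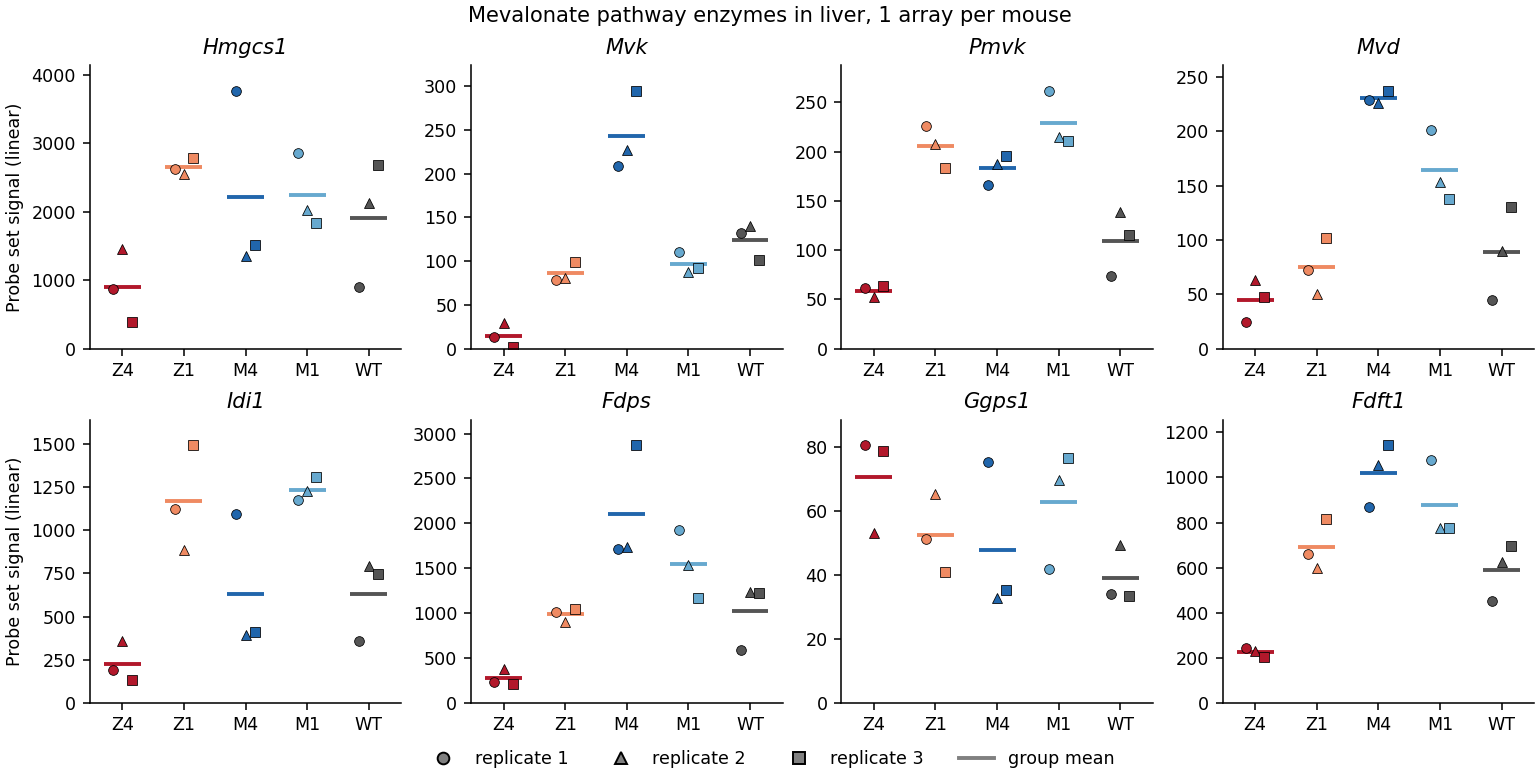
Linear probe set signal of each of the 8 measured enzymes (vertical axis, from 0) on every array of the groups Z4, Z1, M4, M1 and WT, with 1 symbol for each replicate number and a bar at the group mean of 3 arrays. Z4 arrays lie below all others for 5 enzymes, Mvk, Pmvk, Idi1, Fdps and Fdft1, and the M4 arrays lie above all others for Mvk and Mvd.

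The arrays of the groups differed in other ways. Each array's values had nearly the same trimmed mean, 150.06 to 150.08, but the array medians were 49.97 ± 2.37 in Z4 and 48.6 ± 5.69 in M4, against 32.1 ± 0.115 in Z1, 30.7 ± 0.520 in M1 and 43.5 ± 1.33 in WT (SD, n = 3 each). The median of the poly-A control probe sets, RNAs added before labelling, was 2.43 ± 0.506 on Z4 and 4.50 ± 0.964 on M4 arrays, against 57.2 ± 4.39 on Z1, 60.8 ± 8.81 on M1 and 45.7 ± 4.51 on WT arrays. Ribosomal 18S RNA, on the probe set for its 5′ end, had signals of 2354 ± 418 on Z4 and 2239.7 ± 426 on M4 arrays, against 369 ± 201 on Z1, 273 ± 150.2 on M1 and 196 ± 109 on WT arrays. Z4 and M4 arrays shared these values, and their part in comparisons with Z1, M1 or WT was not tested. The hepatocyte markers, 10 of 10 measured with 0 called by limma in Z4 minus Z1, M4 minus M1 or Z4 minus M4 and 3, 2 and 1 there at an unadjusted p under 0.05, summed to 61145 to 66265 on Z4 and 61916 to 73517 on M4 arrays, against 70134 to 82023 on Z1, 71398 to 79649 on M1 and 102862 to 126756 on WT arrays. Markers of Kupffer cells and macrophages, 9 of 10 measured, summed to 1368 to 1696 on Z4 and 1339 to 2181.5 on Z1 arrays (1 called lower), and to 2889 to 3373 on M4 and 1733 to 1800.4 on M1 arrays (6 called higher). Endothelial markers, 8 of 8 measured, summed to 1344.5 to 1396 on Z4 and 822 to 1163 on Z1 arrays (2 called higher), and to 1518 to 2103 on M4 and 929.7 to 1040.2 on M1 arrays (6 called higher). Stellate cell and fibroblast markers, 7 of 8 measured, summed to 1954 to 2003 on Z4 and 1181 to 1379 on Z1 arrays (4 called higher), and to 1467 to 2319 on M4 and 1549.6 to 1704 on M1 arrays (3 called higher). Of all genes, 37.9% were called higher in M4 minus M1, and after quantile normalization 3 Kupffer, 3 endothelial and 2 stellate markers were called higher, with 1 endothelial and 1 stellate marker lower. In Z4 minus Z1 quantile normalization called 2 endothelial and 2 stellate markers higher, with 1 Kupffer, 1 endothelial and 1 stellate marker lower. Of these non-hepatocyte lists 0 markers were at 0 on every array, but Pecam1 (endothelial), Lrat and Col1a1 (both stellate) stayed under 50 throughout. The part of these markers in the changes of the enzymes was not tested. In whole liver, fewer cells of a type and less RNA per cell cannot be told apart. The libraries labelled M4 replicates 1 and 2 went against the male label, with Xist signals of 1149 and 226 and Eif2s3y signals of 0.4 and 1.3, where M4 replicate 3 had 32.6 and 42.1. Y-linked genes, 3 of 4 measured, summed to 17.0, 18.3 and 73.8 on the M4 arrays and to at least 206.6 on every array of the other groups, so M4 replicate 3 stood apart as well. Genes more active in female than in male liver, 5 of 8 measured, summed to 8892, 7929.9 and 139.7 on the M4 arrays. They summed to 324.0 to 463.4 on Z4 arrays and to 40.3 to 198.7 on Z1, M1 and WT arrays, so Z4 lay above those 3 groups. All 5 were called higher in M4 minus M1. Results that rest on M4 are given also without replicates 1 and 2, which leaves replicate 3 alone, assumed to vary like the other groups. The mice of a group were labelled as biological replicates, and their number limited the precision of every value.

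Promoter sequence is shown for 4 of the 6 enzymes that fell together in Z4 minus Z1, as the stretch from 250 bases before to 50 bases after a gene start annotated by RefSeq on GRCm38.p6. Capitals mark matches, on either strand, to the sterol regulatory element TCACNCCAC, the NF-Y box CCAAT and the GC box GGGCGG. The windows lie on the plus strand, at chr13:119690101-119690400 for Hmgcs1, chr5:114444019-114444318 for Mvk, chr3:89454291-89454590 for Pmvk and chr13:8885356-8885655 for Idi1.
Hmgcs1: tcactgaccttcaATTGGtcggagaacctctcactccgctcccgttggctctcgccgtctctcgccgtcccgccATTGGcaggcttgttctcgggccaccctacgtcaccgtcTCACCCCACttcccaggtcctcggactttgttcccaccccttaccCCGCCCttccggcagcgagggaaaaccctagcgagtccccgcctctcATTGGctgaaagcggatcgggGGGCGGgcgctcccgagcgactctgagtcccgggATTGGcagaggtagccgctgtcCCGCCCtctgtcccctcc
Mvk: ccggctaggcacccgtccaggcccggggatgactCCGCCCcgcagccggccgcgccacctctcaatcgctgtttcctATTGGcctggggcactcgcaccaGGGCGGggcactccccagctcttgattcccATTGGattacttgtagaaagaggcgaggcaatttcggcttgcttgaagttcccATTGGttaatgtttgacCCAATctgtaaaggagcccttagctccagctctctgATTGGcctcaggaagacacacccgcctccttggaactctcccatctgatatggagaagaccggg
Pmvk: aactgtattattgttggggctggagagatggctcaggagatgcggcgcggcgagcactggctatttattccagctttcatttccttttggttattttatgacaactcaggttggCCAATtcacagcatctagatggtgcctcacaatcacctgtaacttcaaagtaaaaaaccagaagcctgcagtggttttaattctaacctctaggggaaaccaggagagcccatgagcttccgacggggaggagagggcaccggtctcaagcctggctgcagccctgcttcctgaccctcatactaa
Idi1: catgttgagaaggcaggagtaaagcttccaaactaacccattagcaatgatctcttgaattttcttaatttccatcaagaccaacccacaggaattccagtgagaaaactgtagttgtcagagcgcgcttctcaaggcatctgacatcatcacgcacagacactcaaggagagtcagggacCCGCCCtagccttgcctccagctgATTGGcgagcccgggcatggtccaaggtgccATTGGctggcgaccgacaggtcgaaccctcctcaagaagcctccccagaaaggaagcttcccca

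Hmgcs1 held 1 sterol regulatory element, TCACCCCAC, at -137 to -129 counted from the gene start as 0, with 4 NF-Y boxes and 3 GC boxes. Mvk held 5 NF-Y boxes and 2 GC boxes, Idi1 held 2 and 1, and the Pmvk window shown held 1 NF-Y box, while the other Pmvk window in the RefSeq table held 0 matches. No matches overlapped one another. Of 32851 windows of the same length 1.24% held the sterol regulatory element, 37.4% an NF-Y box and 35.7% a GC box. The E-box CACGTG, in 7.15% of all windows, was found in 0 of the 8 windows of the 7 enzymes that had one. Mvd had 2 NF-Y boxes and 1 GC box, Ggps1 3 NF-Y boxes and Acat2 1 GC box. These matches describe the letters alone. Hmgcs1, with a match to the sterol element in its window, and Mvk, Idi1 and Pmvk, without one, all fell in Z4 minus Z1. Fdps and Fdft1, which fell too, had no window. Any bearing of the matches on the falls was not tested.

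Hmgcs1, the cytosolic synthase that makes HMG-CoA, read, on probe set 1433443_a_at, 865, 1457 and 391 on the 3 Z4 arrays, against 2617.5, 2552.5 and 2787 on the Z1 arrays. Every Z4 array lay below every Z1 array, and the log2 change of -1.72 (SE 0.48, adjusted p = 0.0119) is a 3.30-fold lower value. This fold, like those that follow, is of signal + 16 and understates the change of dim genes. Without Z4 replicate 3, the lowest array of all, the change was -1.23 and no longer called (adjusted p = 0.0627). Signals were 3764, 1354 and 1514 on M4 arrays, 2859, 2022 and 1832 on M1 arrays and 898.5, 2129.8 and 2675 on WT arrays. M4 replicate 1 was the highest of the 15 arrays, WT replicate 1 lay near the Z4 arrays, and M4, M1 and WT overlapped one another. The order of the means was Z4, WT, M4, M1 and Z1 from low to high, and neighbours in that order overlapped in every case. Hmgcs1 was not called in Z4 minus M4, at -1.30 (adjusted p = 0.138), in Z4 minus WT, at -1.11 (adjusted p = 0.153), or in M4 minus M1, at -0.15 (adjusted p = 0.816). On another Hmgcs1 probe set, 1433444_at, all Z4 arrays lay below all M4 arrays, at 268.7 to 731.5 against 793.0 to 1949.8. The same held on 1433446_at, at 204.2 to 435.4 against 468.3 to 1320.2. On 1433445_x_at the arrays of Z4 and M4 overlapped, at 403.5 to 1014.5 against 979.2 to 2815.7.

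Mvk, mevalonate kinase, which adds the first phosphate to mevalonate, read, on probe set 1418052_at, 12.8, 29.5 and 2.0 on Z4 arrays, against 78.8, 80.7 and 99.0 on Z1 arrays. It fell by 1.83 on the log2 scale in Z4 minus Z1 (SE 0.26, adjusted p = 1.42e-04), with no overlap. Of its Z4 signals 2 lay below the constant of 16 that was added before taking log2, and with a constant of 1 the change was -3.00 in Z4 minus Z1 and -4.48 in Z4 minus M4. On M4 arrays Mvk read 208, 227 and 295, against 111, 87.7 and 92.2 on M1 arrays, and it rose by 1.19 (SE 0.26, adjusted p = 0.00179). With a constant of 1 this rise was not called (adjusted p = 0.0839). The M4 arrays were the 3 highest of all 15 for Mvk on this probe set. Without M4 replicates 1 and 2 the rise was 1.47 (adjusted p = 0.00965), and without M4 replicates 2 and 3 it was 1.00 (adjusted p = 0.0550). WT arrays read 132, 140.3 and 101.5. From low to high the means ran Z4, Z1, M1, WT and M4, where Z4 lay apart from Z1 and WT from M4 and the other neighbours overlapped. The log2 change of Mvk was -3.16 (SE 0.26, adjusted p = 4.91e-05) in Z4 minus M4 and -2.28 (SE 0.26, adjusted p = 3.26e-04) in Z4 minus WT. On the other Mvk probe set, 1430619_a_at, M4 arrays read 67.9, 125.2 and 156.0, with replicate 1 below Z1 replicate 3 at 81.4. There WT arrays, at 28.7 to 45.7, lay below Z1 arrays, at 48.6 to 81.4, and M1 arrays, at 49.6 to 55.7. The place of WT in the order depended on the probe set.

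Pmvk, phosphomevalonate kinase, which adds the next phosphate, was measured by a single probe set, 1427893_a_at. Its signals were 61.4, 52.0 and 63.3 on Z4 arrays, against 226, 208 and 184 on Z1 arrays. The Z4 arrays lay close together and far below, with a log2 change of -1.56 (SE 0.18, adjusted p = 3.45e-05). M4 arrays read 166, 188 and 195, M1 arrays 262, 215 and 211 and WT arrays 73.4, 139 and 116. Pmvk was therefore lower in WT than in M4, Z1 or M1, and all 3 of those differences were called, with log2 changes of 0.70 (adjusted p = 0.0124) in M4 minus WT, 0.86 (adjusted p = 0.00432) in Z1 minus WT and 1.00 (adjusted p = 0.00150) in M1 minus WT. The order of means was Z4, WT, M4, Z1 and M1, with Z4 apart from WT, WT apart from M4 and the rest overlapping. In Z4 minus WT the change of Pmvk was -0.71 (SE 0.18, adjusted p = 0.0201), and the call ended without Z4 replicate 2, without WT replicate 2 or 3, and in a fit of Z4 and WT alone. In Z4 minus M4 it was -1.41 (SE 0.18, adjusted p = 0.00168).

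Mvd, mevalonate diphosphate decarboxylase, which makes isopentenyl diphosphate, read, on probe set 1448663_s_at, 24.1, 63.3 and 47.1 on Z4 arrays, against 72.7, 50.4 and 102 on Z1 arrays. These overlapped, and the log2 change of -0.60 was not called (95% interval -1.26 to 0.06, adjusted p = 0.141), except after quantile normalization, where it was -0.99 (adjusted p = 0.0293). M4 arrays read 229, 226 and 237, M1 arrays 201, 153 and 138 and WT arrays 45.0, 90.1 and 131. The M4 arrays were tightly grouped and, on this probe set, the 3 highest of all. M4 minus M1 was not called, at 0.47 (adjusted p = 0.221). Means ran Z4, Z1, WT, M1 and M4, with WT apart from M1 and M1 apart from M4. Mvd was lower in Z4 than in M4, with a log2 change of -2.07 (SE 0.31, adjusted p = 0.00460), and higher in M4 than in WT, at 1.33 (SE 0.31, adjusted p = 0.00796). On the other Mvd probe set, 1417303_at, Z4 and Z1 arrays lay closer together and overlapped, at 59.7, 58.0 and 76.6 against 82.7, 56.1 and 78.0. There M4 arrays read 162.4, 176.1 and 143.2 and overlapped the M1 arrays, at 153.9, 105.3 and 111.9. WT arrays, at 63.4, 89.0 and 111.4, overlapped the M1 arrays too.

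Idi1, the isomerase that interconverts the isopentenyl and dimethylallyl diphosphates, had the largest fall of the 8 enzymes in Z4 minus Z1 with the constant of 16. It read, on probe set 1451122_at, 191, 357 and 132 on Z4 arrays, against 1123, 889 and 1493 on Z1 arrays, a log2 change of -2.36 (SE 0.41, adjusted p = 5.55e-04) or a 5.14-fold lower value. Idi1 was also the enzyme called lower in M4 minus M1, with 1093, 394 and 408.5 on M4 arrays, against 1177, 1226 and 1306 on M1 arrays, and a change of -1.11 (SE 0.41, adjusted p = 0.0348). On this probe set M4 replicate 1 lay near the M1 arrays and replicates 2 and 3 far below them. For Hmgcs1, too, M4 replicate 1 lay far above M4 replicates 2 and 3. Without M4 replicates 1 and 2 the M4 minus M1 change of Idi1 was -1.56 (adjusted p = 0.0255), and without M4 replicates 2 and 3 it was -0.17 (adjusted p = 0.811). The call also ended without M4 replicate 2 or 3 alone, without any 1 of the M1 arrays, after quantile normalization, where the change was -1.02 (adjusted p = 0.0791), and with a constant of 1. WT arrays read 361, 796 and 744, with replicate 1 low. The means ran Z4, M4, WT, Z1 and M1 from low to high, with Z4 apart from M4 and WT apart from Z1. Idi1 fell in Z4 minus WT, at -1.45 (SE 0.41, adjusted p = 0.0328), a call that 7 of 26 alternatives ended. It was not called in Z4 minus M4, at -1.36 (adjusted p = 0.0695), although the 3 Z4 arrays lay below the 3 M4 arrays. On the other Idi1 probe set, 1423804_a_at, M4 arrays read 354.4, 180.7 and 170.5, against 582.8, 605.6 and 630.5 on M1 arrays. There M4 replicate 1, too, lay far below the M1 arrays.

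Fdps, farnesyl diphosphate synthase, which joins the isoprenoid units, read, on probe set 1423418_at, 231, 382 and 206 on Z4 arrays, against 1009.6, 898 and 1049.9 on Z1 arrays. Its log2 change was -1.84 (SE 0.31, adjusted p = 4.25e-04), a 3.58-fold lower value with a gap between the groups. M4 arrays read 1710.0, 1739 and 2869, M1 arrays 1929.9, 1539 and 1164 and WT arrays 592, 1237 and 1228. M4 and M1 overlapped, and their difference was not called, at 0.43 (adjusted p = 0.258). The order of the means was Z4, Z1, WT, M1 and M4, in which only Z4 and Z1 were apart. Fdps had a 7.37-fold lower value in Z4 than in M4, at -2.88 (SE 0.31, adjusted p = 3.23e-04), and fell by 1.81 on the log2 scale in Z4 minus WT (SE 0.31, adjusted p = 0.00256).

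Ggps1, geranylgeranyl diphosphate synthase, which extends farnesyl diphosphate away from sterols, did not follow the others. The probe set used for the gene, 1419805_s_at, read 80.6, 53.1 and 78.7 on Z4 arrays, against 51.2, 65.3 and 40.9 on Z1 arrays, 75.3, 32.7 and 35.4 on M4, 41.9, 69.6 and 76.6 on M1 and 34.2, 49.5 and 33.4 on WT arrays. Means ran WT, M4, Z1, M1 and Z4 from low to high, and all neighbours overlapped. On the values as deposited no comparison called it. Its log2 change in Z4 minus Z1 was 0.34 as deposited and -0.07 after quantile normalization, so its direction there depended on the scaling. Quantile normalization also called Ggps1 lower in M4 minus M1, at -0.78 (adjusted p = 0.0230) against -0.34 as deposited, and higher in M1 minus WT, at 0.82 (adjusted p = 0.0453) against 0.50.

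Fdft1, squalene synthase, which condenses farnesyl diphosphate into squalene and opens the sterol branch, read, on probe set 1438322_x_at, 242, 230.2 and 203 on Z4 arrays, against 660.2, 599.7 and 815 on Z1 arrays. The Z4 arrays lay within a narrow range and below all others, with a log2 change of -1.55 (SE 0.19, adjusted p = 5.48e-05), a 2.92-fold lower value. M4 arrays read 867, 1054 and 1143, M1 arrays 1078, 775 and 775 and WT arrays 453, 624 and 694.5. The means ran Z4, WT, Z1, M1 and M4, and beyond the gap between Z4 and WT each neighbour overlapped the next. Fdft1 was 4.29-fold lower in Z4 than in M4, at -2.10 (SE 0.19, adjusted p = 7.53e-05), and 2.48-fold lower in Z4 than in WT, at -1.31 (SE 0.19, adjusted p = 9.87e-04).

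**Figure D2:**
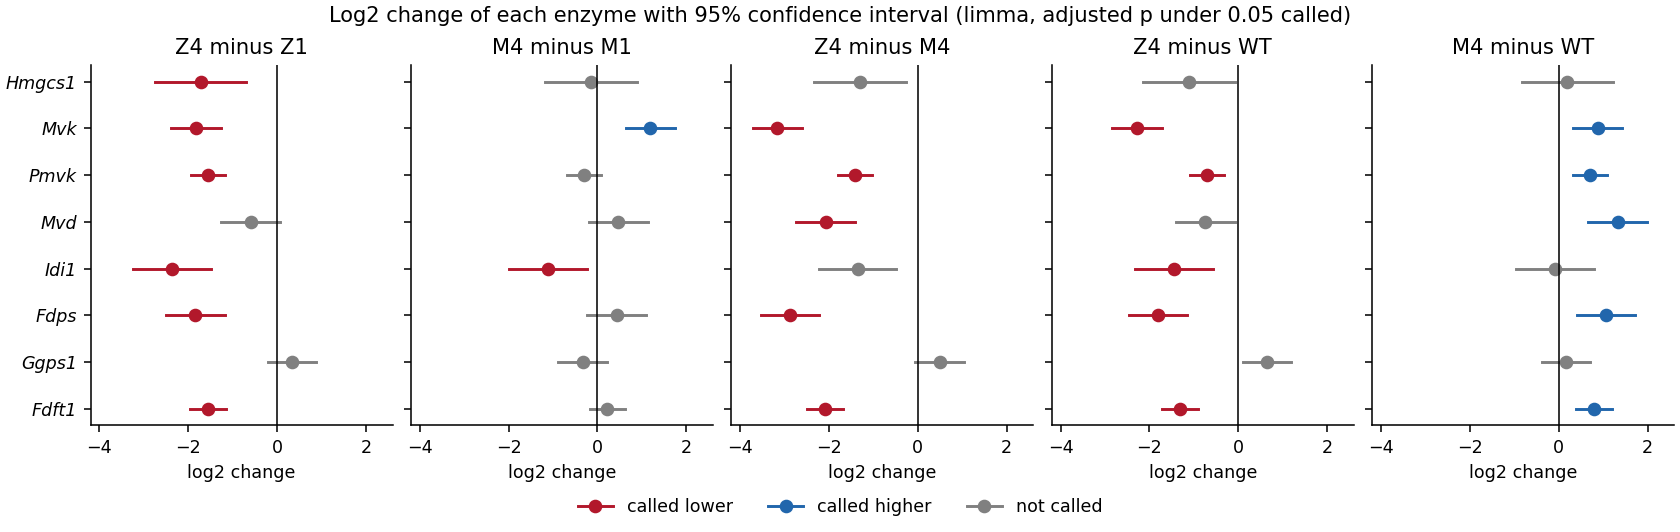
Log2 change of each measured enzyme (points) with its 95% interval (lines) in Z4 minus Z1, M4 minus M1, Z4 minus M4, Z4 minus WT and M4 minus WT, from the limma fit, coloured by call. In Z4 minus Z1, 6 of the 8 enzymes are called lower, and in M4 minus WT 5 are called higher, while Ggps1 is not called in any of the 5 panels.

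Z4 and M4 livers both made a human protein, neither group received doxycycline, and their array medians averaged 49.97 and 48.6. In Z4 minus M4, 5 of the 8 enzymes fell (Mvk, Pmvk, Mvd, Fdps and Fdft1), against 1.5% of all genes called lower, and the median log2 change was -1.74 for the enzymes and -0.03 for all genes. The 3 Z4 arrays lay below the 3 M4 arrays for 6 of the 8 enzymes, where 11.1% of all genes had all Z4 arrays below all M4 arrays. Without M4 replicates 1 and 2, 5 enzymes were again called lower, and without M4 replicates 2 and 3 these were 3 (Mvk, Fdps and Fdft1). With the first and then the second pair left out, the log2 changes were -3.44 and -2.97 for Mvk, -3.37 and -2.63 for Fdps and -2.27 and -1.88 for Fdft1, all called. Those of Pmvk were -1.50 and -1.29 (adjusted p = 0.0601 with the second pair left out), and those of Mvd -2.11 and -2.07 (adjusted p = 0.0877 with the second pair left out). The Kupffer cell and macrophage markers, 9 of 10 measured, also moved between these groups, summing to 1368 to 1696 on Z4 and 2889 to 3373 on M4 arrays with 3 called lower. Their part in this result was not tested.

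Against WT littermates, 5 of 8 enzymes fell in Z4 (Mvk, Pmvk, Idi1, Fdps and Fdft1), where 4.63% of all genes were called lower, and their arrays did not overlap, as for 12.5% of all genes. The median log2 change of the enzymes was -1.21, against 0.06 for all genes. WT replicate 1 lay below its group's mean for 7 of the 8 enzymes, and each of the 3 calls of Mvk, Fdps and Fdft1 held without it and under the other alternatives. In M4 minus WT, 5 enzymes rose, against 14.4% of all genes called higher, and the M4 arrays lay above the WT arrays for all 5, as for 21.9% of all genes. They were Mvd, Fdps at 1.07 (adjusted p = 0.0222), Mvk at 0.88 (adjusted p = 0.0252), Fdft1 at 0.79 (adjusted p = 0.00924) and Pmvk. Of the hepatocyte markers 8 of 10 were called lower both in Z4 minus WT and in M4 minus WT (9.43% of all genes in M4 minus WT), and 0 after quantile normalization in both. Their part in these results was not tested. Of the 5 rises 2 (Fdps and Fdft1) were called without M4 replicates 1 and 2, and 0 without M4 replicates 2 and 3, where the log2 changes of the 5 were 0.56 to 1.32 and 3 of the 8 enzymes had an unadjusted p under 0.05.

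With the transgene off in both lines, no enzyme passed the test of Z1 against M1. Z1 minus M1 called 0 of the 8 with limma and 0.137% of all genes in either direction, and 0 of the 8 also under each of 26 alternatives. At an unadjusted p under 0.05 there was 1, Mvd, at -1.01 (adjusted p = 0.235). Arrays did not overlap for Mvd and Fdps, both lower in Z1, as for 8.75% of all genes, and the 95% intervals of the other 7 enzymes lay within -1.27 to 1.30. Set against WT, Pmvk was the enzyme called in Z1, and Pmvk and Fdft1 were called higher in M1, Fdft1 at 0.56 (adjusted p = 0.0409). The Fdft1 call ended under 11 of 26 alternatives, among them quantile normalization (adjusted p = 0.109), a fit of M1 and WT alone and the omission of any single M1 array. Of all genes 4.03% were called higher in Z1 minus WT and 3.92% in M1 minus WT. These comparisons share the WT arrays, and doxycycline differed in both.

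The difference of the on-off changes, (Z4 minus Z1) minus (M4 minus M1), was tested as an interaction. It was called for 4 of the 8 enzymes, all lower, against 0.307% of all genes called lower. Over all genes the interaction had 76 calls in either direction, a number that ranged from 2 without M1 replicate 2 to 1157 with array weights. The enzymes were Mvk at -3.02 (SE 0.37, adjusted p = 0.00623), Fdft1 at -1.77 (SE 0.27, adjusted p = 0.0197), Fdps at -2.27 (SE 0.43, adjusted p = 0.0422) and Pmvk at -1.27 (SE 0.25, adjusted p = 0.0454). The median interaction was -1.42 over the enzymes and -0.04 over all genes. Of 26 alternatives, 1 ended the call of Mvk, 5 that of Fdft1, 14 that of Fdps and 16 that of Pmvk, and 1 call of the 4 was left without Z1 replicate 2, M4 replicate 2, M1 replicate 2 or M1 replicate 3. All 4 calls stood without M4 replicates 1 and 2, and 1 (Mvk, -2.82, adjusted p = 0.0272) stood without M4 replicates 2 and 3. Hmgcs1 and Idi1 had interactions of -1.57 (adjusted p = 0.295) and -1.25 (adjusted p = 0.324), and Mvd had -1.07 (adjusted p = 0.270).

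**Figure D3:**
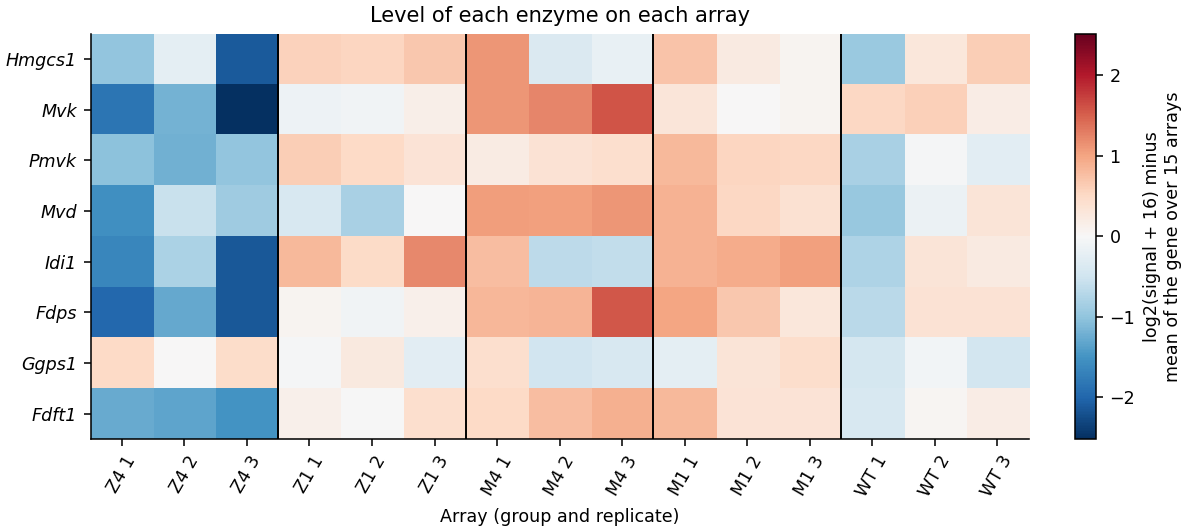
Level of each enzyme (down the page) on each array (across, grouped Z4, Z1, M4, M1 and WT), as log2(signal + 16) minus that gene's mean over the 15 arrays, from blue (low) to red (high). The Z4 columns are blue for every enzyme but Ggps1. M4 replicate 1 differs from replicates 2 and 3 for Hmgcs1, Idi1 and Ggps1. WT replicate 1 is lower than replicates 2 and 3 for most enzymes.

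Within groups the enzymes also varied together. Over 15 arrays the 21 pairs of enzymes that leave out Ggps1 had Pearson correlations of 0.49 to 0.97 with a median of 0.71. After each group's mean was subtracted, 20 of the 21 were still positive, with a median of 0.42. The pair with the highest correlation after this step was Hmgcs1 and Idi1, at 0.90, followed by Fdps and Fdft1 at 0.75 and Mvd and Fdps at 0.72. Hmgcs1 and Idi1 were both high on M4 replicate 1 and Z4 replicate 2 and low on WT replicate 1 and Z4 replicate 3 for their groups. The 7 pairs with Ggps1 had a median of -0.34 over 15 arrays, with 0 positive. After each group's mean was subtracted, their median was -0.41, with 3 positive. All pairs share the same 15 arrays and their scaling, and the values are descriptions.

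The enzymes were also read by further probe sets. Of all 21, 12 were called lower and 4 higher in Z4 minus Z1, where 8.04% and 28.1% of all 20380 probe sets were called in those directions. The other 3 probe sets of Hmgcs1 fell, with log2 changes of -2.37, -2.16 and -1.56, as did a further probe set of Mvk, at -1.61, and of Idi1, at -2.85. Those with a rise were dim or belonged to Ggps1. For Ggps1, 1429356_s_at read 64.8, 59.1 and 92.5 on Z4 arrays, against 21.3, 31.8 and 25.3 on Z1 arrays, and was called higher there (1.05, adjusted p = 4.57e-04) and in M4 minus M1 (0.67, adjusted p = 0.00598), and 1419506_at was called higher in Z4 minus Z1 (0.69, adjusted p = 0.0104). The probe sets of Ggps1 disagreed on whether the gene passed the test, and the gene's result is uncertain. For Fdft1 a bright second probe set, 1448130_at, read 222, 199 and 213 on Z4 arrays, against 562, 467 and 608 on Z1 arrays, and fell there (-1.30, adjusted p = 4.88e-04). In M4 minus M1 the same probe set rose (0.74, adjusted p = 0.0119), where the one used for the gene was not called. In M4 minus M1, 5 of the 21 were called higher and 2 lower, against 33.5% and 13.4% of all probe sets. In Z4 minus M4, 8 were lower and 1 was higher, against 1.17% and 3.59%. In Z4 minus WT, 9 were lower, against 4.34%, in M4 minus WT 9 were higher, against 13.5%, and 5 had a lower interaction, against 0.162%. The remaining Fdft1 probe sets, 1438918_at and 1438919_x_at, with a highest signal of 33.7, were called higher in Z4 minus Z1, and 1438150_at of Fdps never exceeded 2.0.

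**Figure D4:**
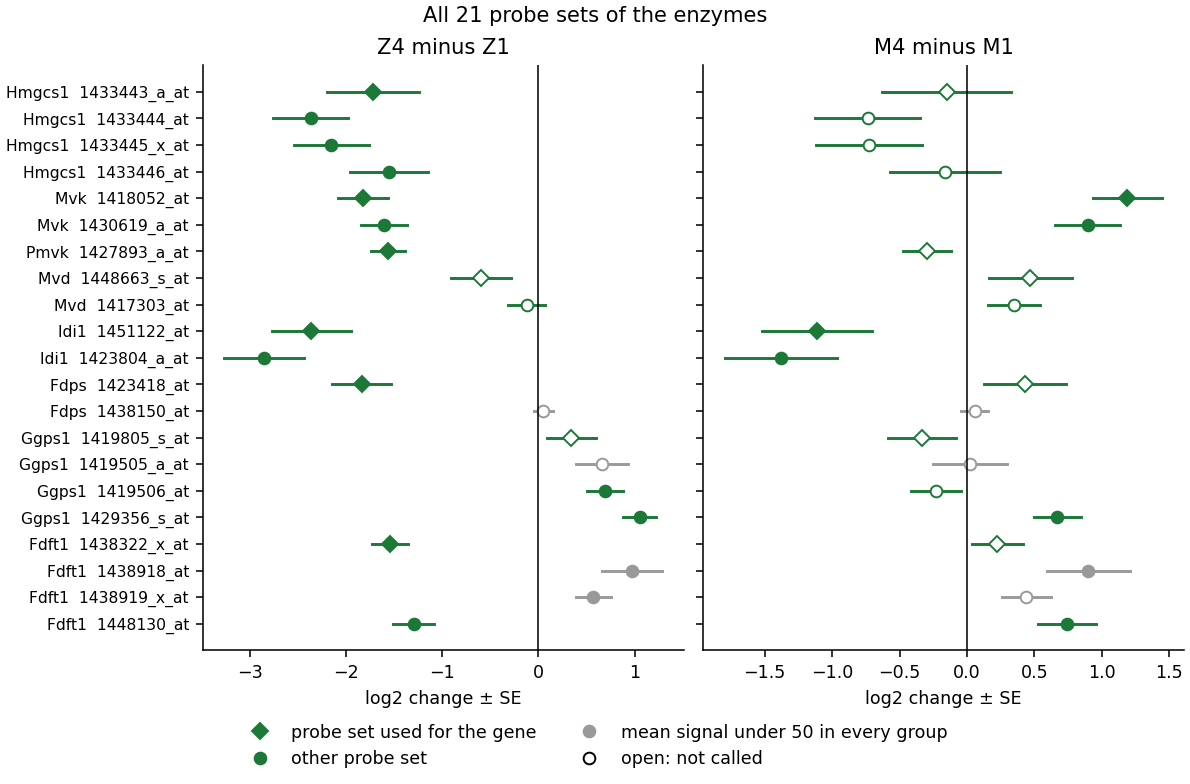
Log2 change with its SE of all 21 probe sets of the enzymes in Z4 minus Z1 (left) and M4 minus M1 (right), with the probe set used for each gene as a diamond, open symbols for those not called and grey for those with a mean signal under 50 in every group. In Z4 minus Z1, 12 lie left of 0 and are called lower, and the 4 called higher are 2 of Ggps1 and 2 dim ones of Fdft1.

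Neighbouring parts of the pathway were read from lists that overlap earlier results of these data. Of the sterol enzymes after squalene, 10 of 11 were measured, and 7 fell and 1 rose in Z4 minus Z1, against 7.46% and 31.6% of all genes. Cyp51, the lanosterol demethylase, read 68.2, 120.4 and 83.9 on Z4 arrays, against 557, 438 and 542 on Z1 arrays, and changed by -2.33 (SE 0.21, adjusted p = 1.11e-05). Tm7sf2, a sterol reductase, changed by -1.56 (SE 0.16, adjusted p = 1.74e-05), and Dhcr7, which takes the last step to cholesterol, by -1.87 (SE 0.29, adjusted p = 2.46e-04). The median log2 change of the list was -1.38. In M4 minus M1, 4 of the 10 rose and 1 fell, shares near the 37.9% and 12.4% of all genes, with Hsd17b7, a sterol ketoreductase, at 1.77 (adjusted p = 2.25e-05), Lss, lanosterol synthase, at 0.86 (adjusted p = 6.68e-04), and Tm7sf2 lower at -0.91 (adjusted p = 3.56e-04). In Z4 minus M4, 9 of the 10 fell and 0 rose, where 1.5% of all genes were called lower.

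Of 9 listed genes of sterol sensing and uptake, 6 were measured, and 3 rose in Z4 minus Z1 while 0 fell, where 31.6% of all genes were called higher and 7.46% lower. Srebf2, which encodes SREBP-2, read 143, 113.5 and 162 on Z4 arrays, against 44.9, 100.2 and 68.5 on Z1 arrays (log2 change 0.87, adjusted p = 0.00569). Srebf1, for the related SREBP-1, was at 0.87 (adjusted p = 0.00710), and Mylip, a ubiquitin ligase that marks the LDL receptor for degradation, at 1.40 (adjusted p = 2.07e-04). Mylip also rose in M4 minus M1 (1.52, adjusted p = 6.47e-05), the 1 gene of the list called there. In Z4 minus M4, limma called 0 of the 6, with 1 at an unadjusted p under 0.05, and after quantile normalization 1 was called lower.

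Among enzymes that use the isoprenoid products, 12 of 18 were measured. In Z4 minus Z1, 3 of the 12 rose and 0 fell, a share of rises below the 31.6% of all genes. They were Fntb, the beta subunit of protein farnesyltransferase (1.45, adjusted p = 3.48e-04), Rabggta, the alpha subunit of the enzyme that prenylates Rab proteins (0.76, adjusted p = 0.00103), and Dolk, dolichol kinase (0.37, adjusted p = 0.0399). After quantile normalization 2 of the 12 were called higher. All 3 also rose in M4 minus M1, by 1.23, 1.08 and 0.94, where 4 other members fell and 37.9% and 12.4% of all genes were called higher and lower. Of 10 genes of acetyl-CoA supply and of related enzymes in other compartments 7 were measured. Acaa2, a mitochondrial thiolase, and Acss2, which makes acetyl-CoA from acetate in the cytosol, fell in Z4 minus Z1, at -1.09 (adjusted p = 3.32e-04) and -0.77 (adjusted p = 0.00603). These 2 of 7 compare with 7.46% of all genes called lower. Of the 7, 2 rose in M4 minus M1, where 37.9% of all genes did, Acaa1a at 0.86 (adjusted p = 0.00344) and Acaa2 at 0.48 (adjusted p = 0.0354).

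**Figure D5:**
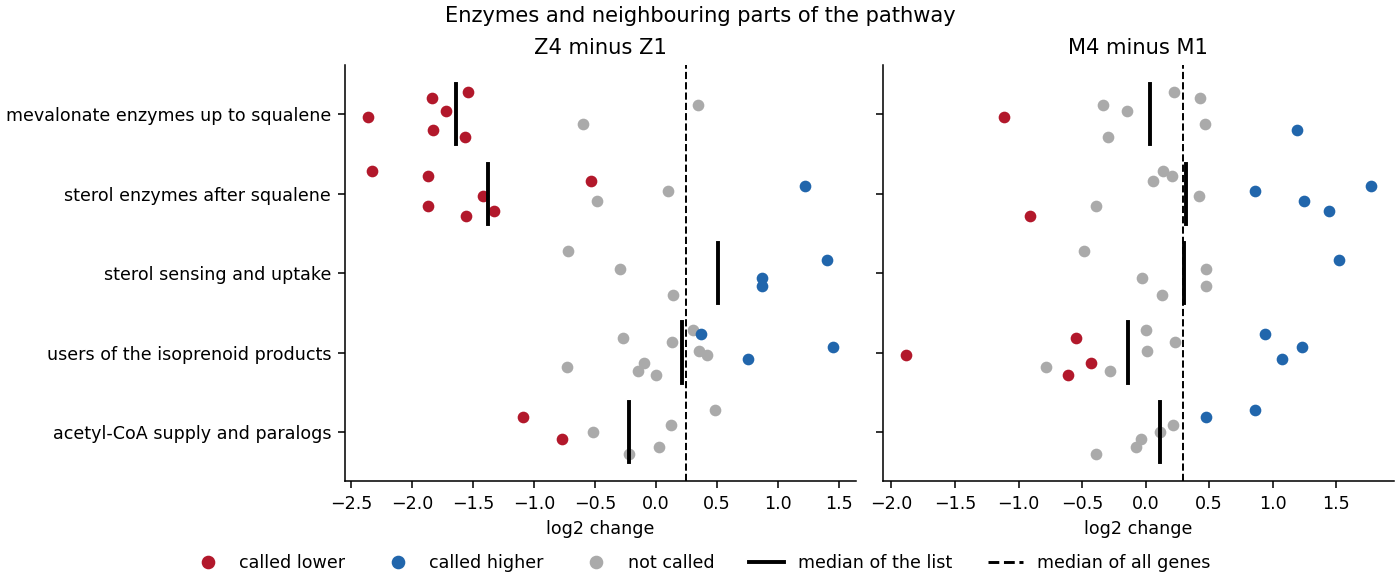
Log2 change of every measured gene of the mevalonate enzymes and 4 neighbouring lists (down the page) in Z4 minus Z1 (left) and M4 minus M1 (right), coloured by call, with the median of each list as a bar and that of all genes as a dashed line. In Z4 minus Z1 the medians of the mevalonate and sterol lists, -1.64 and -1.38, lie left of the median of all genes, 0.25, and in M4 minus M1 those of both lists, 0.04 and 0.31, lie on either side of it, 0.29.

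The mean standardised profile of the 8 enzymes over 15 arrays was most like that of Cyp51, with a Pearson correlation of 0.97. Next came Dhcr7 and Ehd4 at 0.94, then Elovl1, Msmo1, Rdh11, Rmdn3 and Tbrg1 at 0.86 to 0.89. After subtraction of each group's mean, the genes most like it were Fasn, fatty acid synthase, at 0.94, Orc5 at 0.93, Larp7, Snap23, Pax9, Pitpnb and Rreb1 at 0.88 to 0.92 and again Cyp51 at 0.88. Of these 15 genes, Cyp51, Dhcr7 and Msmo1 are sterol enzymes of the pathway lists. Cyp51 was named by both measures, while Fasn, whose log2 change in Z4 minus Z1 was -0.03, was named by the second.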

How the data were processed

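Liver RNA of 15 mice, 3 in each of 5 groups, was purified with TRIZOL and RNeasy and labelled with biotin, per the labels' protocols. The deposited values are linear probe set intensities, from 0 to 22995.4, and the submitters' processing notes name RMA, without a version. They were not on a log2 scale, and after dropping 2% at each end their mean was 150.06 to 150.08 on every array. How they were scaled is unknown here, and after quantile normalization the median log2 change of all genes in Z4 minus Z1 was -0.00 in place of 0.25. Of 22690 probe sets, 64 were controls, 20380 had 1 gene in the platform annotation, 691 several and 1555 none, and 20351 matched a RefSeq gene name. Each gene was represented by its probe set with the highest mean log2(value + 16). The 12393 genes were tested with limma 3.58.1 in R 4.3.3, with 1 mean for each group over all arrays and 10 residual degrees of freedom. P-values were adjusted by Benjamini-Hochberg within each comparison, and an adjusted p under 0.05 was a call. Plots used Python 3.11.15 with matplotlib 3.10.9. Most comparisons share arrays with others, but Z4 minus Z1 and M4 minus M1 share none.

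The enzymes, the lists and the tests were chosen with earlier results of these data known. All enzymes were named in each comparison, as were up to 3 called genes of each neighbouring list with the smallest adjusted p, and the 8 genes most like the enzymes over all arrays or after subtraction of group means. Promoter windows came from a RefSeq table on GRCm38.p6. Of the 9 enzymes 7 had a window there. Alternatives were a constant of 1 or 64, quantile normalization, removal of genes below the 40th percentile, all probe sets, only the groups compared, an intensity trend, array weights, a replicate block, and arrays left out.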

Additional observations from a re-analysis of the deposited data

Results flagged for a closer look

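The on-off change differed between the Z and M lines for 4 enzymes by limma's interaction term, which compares Z4 minus Z1 with M4 minus M1 and shares no array between them. Mvk had an interaction of -3.02 (adjusted p = 0.00623), from a change of -1.83 in the Z line and 1.19 in the M line, both called. Fdft1 had -1.77 (adjusted p = 0.0197), with changes of -1.55 in the Z line and 0.23 in the M line, and Fdps had -2.27 (adjusted p = 0.0422), with -1.84 and 0.43. Pmvk had -1.27 (adjusted p = 0.0454), with -1.56 in the Z line and -0.30 in the M line. Of 26 alternatives 16 ended the call of Pmvk, 14 that of Fdps, 5 that of Fdft1 and 1 that of Mvk. The replicate block ended the calls of Pmvk and Fdps, and the omission of single arrays ended those of Pmvk, Fdps and Fdft1. For Fdft1, Fdps and Pmvk the change in the M line was not called. Doxycycline differed with expression in both lines, and its part was not tested. M4 replicates 1 and 2 went against the male label. Without them the interactions were -3.29 for Mvk, -1.94 for Fdft1, -2.76 for Fdps and -1.36 for Pmvk. Without M4 replicates 2 and 3 they were -2.82, -1.55, -2.01 and -1.14 in the same order.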

How the results depend on the processing

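Over 26 alternatives, 11 settings and 15 single arrays left out, the 72 log2 changes of the enzymes gave 1872 values, of which 1734 kept their direction and side of the threshold, 90 lost a call, 20 gained one and 28 changed sign. The count of 6 enzymes in Z4 minus Z1 stayed within 1.5 times throughout, and 5 calls there (Mvk, Pmvk, Idi1, Fdps and Fdft1) held in all 26. In M4 minus M1 the 2 calls became 0 with a constant of 1, 1 with the replicate block, 0 without M4 2 and 3, and 1 to 3 without single arrays. Beside those counts of 0 by limma, 2 enzymes with a constant of 1 and 1 without M4 2 and 3 had an unadjusted p under 0.05. In Z4 minus M4 the 5 became 3 without M4 2 and 3. In Z4 minus WT the 5 became 3 with only the groups compared and 3 to 6 without single arrays. In M4 minus WT the 5 became 2 with only the groups compared, 2 without M4 1 and 2, 0 without M4 2 and 3, and 3 to 5 without single arrays. In M1 minus WT the 2 became 1 with a constant of 1, 4 with array weights, 1 with the replicate block and 1 to 3 without single arrays. The 4 interactions became 1 with a constant of 1, 2 with the replicate block, 1 without M4 2 and 3, and 1 to 4 without single arrays. No strong link between same-numbered samples was seen, as 30 same-numbered pairs of deviations from group means correlated at -0.17 to 0.066. Whether the replicate numbers pair the samples is not known here.

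Changes of sign were among log2 changes that were not called. Without M4 2 and 3, Hmgcs1 in M4 minus M1 was 0.77, Idi1 in M4 minus WT 0.85, Ggps1 in M4 minus M1 0.24 and Ggps1 in Z4 minus M4 -0.089. Without M4 1 and 2, Hmgcs1 in M4 minus WT was -0.19 and Ggps1 there -0.086. Quantile normalization gave Mvd in Z1 minus WT 0.017, Fdps there -0.034 and Ggps1 in Z4 minus Z1 -0.070. Array weights gave Hmgcs1 in M4 minus WT -0.18, Ggps1 there -0.091 and Fdps in Z1 minus WT -0.018. Without single arrays, Hmgcs1 ranged from -0.61 to 0.12 in M4 minus M1, -0.27 to 0.51 in M4 minus WT and -0.12 to 0.66 in M1 minus WT. Idi1 ranged from -0.56 to 0.16 in M4 minus WT and -0.30 to 0.068 in Z1 minus M1, Mvd from -0.49 to 0.14 and Fdps from -0.32 to 0.20 in Z1 minus WT, and Ggps1 from -0.13 to 0.33 in M4 minus WT. The cause was not tested. Over all genes, calls numbered 4838 in Z4 minus Z1 (3123 after quantile normalization), with 3913 higher and 925 lower, against 1616 and 1507 after quantile normalization. In M4 minus M1 they split into 4702 higher and 1537 lower, against 2408 and 2210. Z4 minus M4 had 639 calls, 18 with only the groups compared and 1858 with array weights. Z1 minus M1 had 17, with 6 to 231, and the interaction 76, with 2 without M1 replicate 2 to 1157 with array weights. With 3 arrays a group and signals of Mvk, Mvd and Ggps1 under 100 in several groups, small changes of these genes may be missed.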
